A study of Mus musculus with 6 samples.

Results

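AP-1 is the transcription factor formed when a protein of the FOS family pairs with a protein of the JUN family, and several of its genes are among the first to be transcribed after a cell is stimulated. The genes described here are the 4 FOS family genes Fos, Fosb, Fosl1 and Fosl2, the 3 JUN family genes Jun, Junb and Jund, and 3 further immediate early factors, Atf3, Egr1 and Maff. These genes were taken by gene symbol from the table of read counts, where each symbol had 1 row, so that 10 of 49315 genes are described. All 10 passed the filter on low counts and were among the 18234 genes tested. Between negative control and GapmeR, 4 of the 10 fell (Fosl2, Fos, Junb and Jund), 1 rose (Maff), and 5 did not pass the test (Fosb, Fosl1, Jun, Atf3 and Egr1). Among all genes tested 20.0% fell and 25.4% rose, at an edgeR adjusted p under 0.05. Positions of genes are on mm10.

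The cells were bEND.3, which is an endothelial line made from mouse brain and immortalized by a viral oncogene. They were transfected, with the cationic lipid reagent Lipofectamine 2000, with either an antisense LNA GapmeR against the long non-coding RNA Gm39822 or a negative control antisense LNA GapmeR, each at 100 nM. A GapmeR is a short antisense molecule whose central DNA stretch recruits RNase H, which cuts the paired RNA. The groups held 4 samples (GapmeR) and 2 samples (negative control), in cells that were otherwise alike by their labels and carried no other treatment. All samples are of 1 cell line and 1 targeting oligonucleotide. The labels do not say that the samples came from separate cultures, so p-values measure only the spread between these samples, which may be technical.

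FOS proteins cannot pair with each other and need a JUN partner, whereas JUN proteins also pair among themselves. In both families the members differ in how strongly they activate transcription, so the make-up of the dimers matters as well as their amount. Many of the genes, though not all, are switched on within minutes by MAP kinase signalling. It acts through serum response factor and its ETS partners and through CREB-type factors, and the mRNAs of such genes are short-lived. In endothelium such genes are known for responses to growth factors, shear stress and inflammatory cytokines.

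Gm39822 itself, on mm10 at chr11:51897312-51909624, was counted 2, 1, 4 and 2 times in the GapmeR samples, in the order of their numbers, against 61 and 56 times in the negative controls, a log2 fold change of -4.82 (SE 0.41; edgeR adjusted p = 8.82e-08). Total counts were 29261988 to 37117934 per sample. Across all genes tested, 45.3% passed the same test, 25.4% as higher and 20.0% as lower, and the median log2 fold change was 0.03. The counts of the members are read against these shares. Summed CPM (counts scaled to a common library size, with edgeR's TMM factors) of 12 endothelial markers was 9062 to 10380 in the GapmeR samples and 10840 to 11290 in the controls, with 2 markers higher and 6 lower. Pecam1, Cdh5 and Kdr were present in every sample and were among the 6 lower (log2 -0.30, -0.51 and -0.33). The 2 higher were Erg (log2 1.12) and Egfl7 (log2 0.22), and the other 4 did not pass the test. Summed CPM of 12 macrophage markers was 211 to 394 against 172 to 177, with 3 higher and none lower, and was highest in GapmeR samples 3 and 4 (362 and 394 CPM). For 11 mural cell and fibroblast markers it was 22.1 to 84.3 against 16.4 to 17.4 CPM, with 1 higher and none lower and the highest value in GapmeR sample 3. For 6 epithelial markers it was 0.826 to 1.27 against 0.584 to 0.940 CPM, and Epcam and Cdh1 had at most 3 counts in every sample. In bulk RNA, fewer cells of a type and less RNA per cell cannot be told apart, and the part of these markers in the results below was not tested.

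Start regions are shown for the 3 genes that fell furthest. Beside them stands 1 gene of each family whose difference did not pass the test, Fosb and Jun. Fosl1, which did not pass either, had no start region in the RefSeq table used. Each line holds the 150 bases before the first base of the transcript, from RefSeq on GRCm38.p6 (mm10), read 5′ to 3′ on the strand of the gene. The windows are chr12:85473740-85473889 (+) for Fos, chr5:32136322-32136471 (+) for Fosl2, chr8:84978749-84978898 (-) for Junb, chr7:19310046-19310195 (-) for Fosb and chr4:95052223-95052372 (-) for Jun. Capitals mark TGACG, the core of the CREB and ATF site, TGACATCA, the variant AP-1 site known from the Jun promoter, and GCGNGGGCG, the EGR site.
Fos: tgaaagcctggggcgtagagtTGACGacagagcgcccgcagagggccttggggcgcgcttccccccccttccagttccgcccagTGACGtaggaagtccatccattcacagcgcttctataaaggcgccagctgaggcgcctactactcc
Fosl2: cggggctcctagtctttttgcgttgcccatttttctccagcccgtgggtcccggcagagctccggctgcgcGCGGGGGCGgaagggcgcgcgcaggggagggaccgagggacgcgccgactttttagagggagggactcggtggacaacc
Junb: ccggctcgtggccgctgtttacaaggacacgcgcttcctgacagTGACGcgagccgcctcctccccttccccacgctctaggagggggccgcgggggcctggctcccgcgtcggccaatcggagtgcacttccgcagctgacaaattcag
Fosb: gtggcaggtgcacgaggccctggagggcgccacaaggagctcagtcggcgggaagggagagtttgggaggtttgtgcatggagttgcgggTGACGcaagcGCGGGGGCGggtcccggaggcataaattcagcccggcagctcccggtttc
Jun: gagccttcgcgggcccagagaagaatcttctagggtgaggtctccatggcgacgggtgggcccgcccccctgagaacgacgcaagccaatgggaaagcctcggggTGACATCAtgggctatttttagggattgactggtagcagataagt
Windows of 250 bases before to 50 bases after the start were found for 8 of the 10 members in the RefSeq table, in 10 windows, and both strands were searched. TGACG, counted also where it is part of the full site TGACGTCA, lay in 20.8% of all 32851 such windows, TGACATCA in 3.62% and GCGNGGGCG in 5.55%. The Fos window held TGACG at -129 to -125 and at -66 to -62, counted from the start, and the Junb window held 1 at -106 to -102. The Fosl2 window held no TGACG and 1 EGR site at -79 to -71. Fosb, which is shown for comparison, held 1 of each, with TGACG at -60 to -56 and the EGR site at -50 to -42. The Jun window held TGACATCA at -45 to -38. Atf3, which did not pass the test, held TGACG on the opposite strand at -7 to -3, and Jund, which fell, held none of the motifs searched. Maff, which rose, held the full site TGACGTCA at -29 to -22 (in 1.79% of all windows) and the EGR site at -88 to -80 in 1 of its 3 windows, and TGACATCA in another. The AP-1 site TGANTCA (7.81% of all windows) and the serum response element, or CArG box (1.63%), were in none of the members' windows. Sites more than 250 bases before the start were not searched, and Egr1 and Fosl1 had no window. The search therefore cannot show that these genes lack either element. The searches for TGACG and TGACATCA were added after the sequences had been seen. A match describes the letters and is not evidence of binding.

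In the FOS family, Fosl2 and Fos fell, and Fosb and Fosl1 did not pass the test. Fosl2 (ENSMUSG00000029135, chr5:32136472-32157840) encodes FRA-2, a FOS protein without the strong activation domain of c-FOS. It was at 369, 310, 370 and 307 CPM in GapmeR samples 1 to 4 and at 659 and 722 CPM in the negative controls. Every GapmeR sample lay below both controls, and the highest GapmeR sample did not come near the lower control. The mean fell from 691 ± 44.7 (SD, n = 2) to 339 ± 35.4 CPM (SD, n = 4), which is a log2 fold change of -1.03 (SE 0.09) or 2.04-fold (edgeR adjusted p = 1.44e-07). Among the 3643 genes that fell, 567 had a larger change.

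Fos (ENSMUSG00000021250, chr12:85473890-85477274) encodes c-FOS, the prototype of the family. It was at 24.0, 28.2, 24.9 and 32.4 CPM in the GapmeR samples and at 50.9 and 42.4 CPM in the controls. The groups did not overlap, and the controls differed from each other about as much as the GapmeR samples did. Its mean fell from 46.6 ± 5.96 (n = 2) to 27.4 ± 3.79 CPM (n = 4), for a log2 fold change of -0.77 (SE 0.11) or 1.70-fold (edgeR adjusted p = 9.69e-05).

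Fosb (ENSMUSG00000003545, chr7:19302696-19310118), whose protein is close to c-FOS in sequence and structure, did not pass the test. It was at 57.2, 80.7, 65.9 and 81.0 CPM in the GapmeR samples and at 62.1 and 67.3 CPM in the controls. GapmeR samples 2 and 4 lay above both controls, sample 1 below both and sample 3 between them. The log2 fold change was 0.14 (95% interval -0.16 to 0.44; edgeR adjusted p = 0.436), an interval that excludes a fall of the size fitted for Fos.

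Fosl1 (ENSMUSG00000024912, chr19:5447698-5455938) encodes FRA-1, the FOS protein known for high levels in growing and transformed cells. It was at 377, 318, 421 and 419 CPM in the GapmeR samples and at 439 and 414 CPM in the controls. GapmeR samples 3 and 4 lay between the controls and samples 1 and 2 below them. The log2 fold change was -0.15 (95% interval -0.37 to 0.06; edgeR adjusted p = 0.24). It passed the test as lower in the fit with the GC content of genes removed (-0.36, adjusted p = 0.00152) and in the fit that kept the replicate number as a block (-0.28, adjusted p = 0.028). Fosl1 also shares 1163 bases of exon with Ccdc85b on the opposite strand (GRCm39 annotation), and Ccdc85b rose from 186 to 263 CPM (log2 0.50, edgeR adjusted p = 5.47e-05). Whether the counting used strand is not given in the sources used here, so reads of this pair cannot be told apart with certainty.

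Among the JUN family genes, Junb and Jund fell and Jun did not pass the test. Junb (ENSMUSG00000052837, chr8:84976909-84978748) encodes a JUN protein that activates many AP-1 sites more weakly than c-JUN and can oppose it. It was at 94.3, 86.6, 97.7 and 89.9 CPM in the GapmeR samples and at 144 and 142 CPM in the controls. All GapmeR samples lay well below both controls, and both groups were tight. The mean fell from 143 ± 1.23 (n = 2) to 92.1 ± 4.87 CPM (n = 4), for a log2 fold change of -0.63 (SE 0.07) or 1.55-fold (edgeR adjusted p = 2.23e-06). Its 173 exon bases shared with Prdx2 on the opposite strand lie in a gene whose own log2 fold change was -0.19 (edgeR adjusted p = 0.0548).

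Jund (ENSMUSG00000071076, chr8:70697739-70700616) encodes the JUN protein that is present in resting cells. It was at 559, 489, 630 and 505 CPM in the GapmeR samples and at 673 and 682 CPM in the controls. The groups did not overlap, but GapmeR sample 3 came close to the controls. The log2 fold change was -0.31 (SE 0.09) or 1.24-fold lower (edgeR adjusted p = 0.0127). The call was lost when negative control 1 was left out (-0.30, adjusted p = 0.098), when negative control 2 was left out (-0.28, adjusted p = 0.133) and with scaling by library size only (-0.17, adjusted p = 0.143).

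Jun (ENSMUSG00000052684, chr4:95049036-95052222) encodes c-JUN, the strong activator of the family and a substrate of the JNK kinases. It was at 338, 361, 373 and 399 CPM in the GapmeR samples and at 348 and 341 CPM in the controls. GapmeR sample 1 lay below both controls and the other three above them. The log2 fold change was 0.10 (95% interval -0.07 to 0.26; edgeR adjusted p = 0.341). Scaling by library size only gave 0.24 (adjusted p = 0.019), which passed, and removal of GC content gave -0.04 (adjusted p = 0.694), so that the sign depended on the setting. The interval under the main scaling excludes a change of the size fitted for Junb.

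**Figure D1:**
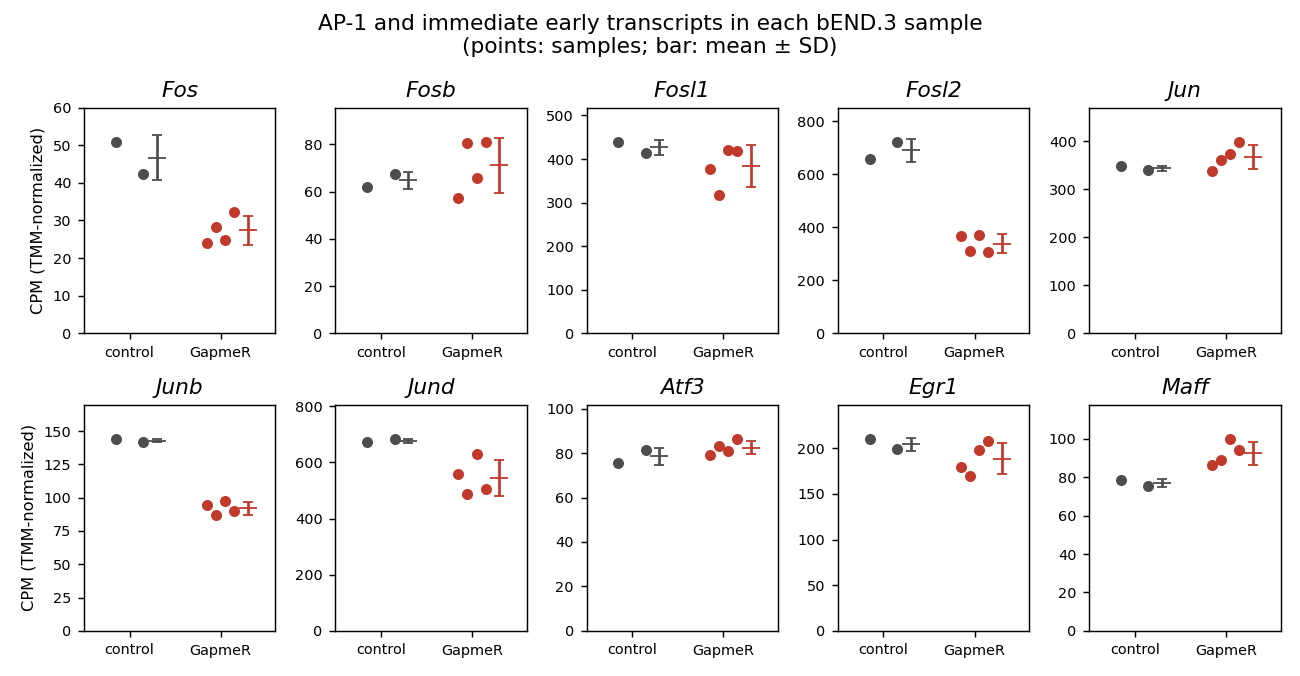
TMM-scaled CPM of each of the 10 genes in the 4 GapmeR samples and the 2 negative controls, with points for samples and bars for the mean ± SD of each group. Fosl2, Fos, Junb and Jund have all GapmeR points below the control points, Maff has them all above, and the remaining genes overlap.

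Of the 3 factors outside the FOS and JUN families, only Maff passed the test. Atf3 (ENSMUSG00000026628, chr1:191170296-191183333) encodes a stress-induced bZIP protein that can pair with JUN proteins and often represses. It was at 79.2, 83.4, 80.9 and 86.1 CPM in the GapmeR samples and at 75.6 and 81.3 CPM in the controls. GapmeR samples 1 and 3 lay between the controls and samples 2 and 4 above them. The log2 fold change was 0.07 (95% interval -0.08 to 0.22; edgeR adjusted p = 0.445), and with scaling by library size only it was 0.22 (adjusted p = 0.022).

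Egr1 (ENSMUSG00000038418) encodes a zinc finger factor induced by the same serum response element route as Fos, and it belongs to another protein family. It was at 180, 170, 198 and 208 CPM in the GapmeR samples and at 210 and 199 CPM in the controls. GapmeR sample 4 lay between the controls and the other three below them. The log2 fold change was -0.12 (95% interval -0.29 to 0.06; edgeR adjusted p = 0.275). With GC content removed it was -0.28 (adjusted p = 0.00425), which passed, and with scaling by library size only it was 0.03.

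Maff (ENSMUSG00000042622, chr15:79346621-79359078) encodes a small MAF protein, a bZIP factor without an activation domain that pairs with NRF-type and BACH factors. It was at 86.6, 88.9, 99.7 and 94.4 CPM in the GapmeR samples and at 78.3 and 75.3 CPM in the controls. All GapmeR samples lay above both controls. The mean rose from 76.8 ± 2.13 (n = 2) to 92.4 ± 5.87 CPM (n = 4), for a log2 fold change of 0.27 (SE 0.08) or 1.20-fold (edgeR adjusted p = 0.00949). Among the 4625 genes that rose, 4377 had a larger change. The call was lost without negative control 2 (0.26, adjusted p = 0.089), with a block for the replicate number (0.21, adjusted p = 0.0519) and with GC content removed (0.14, adjusted p = 0.0899).

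**Figure D2:**
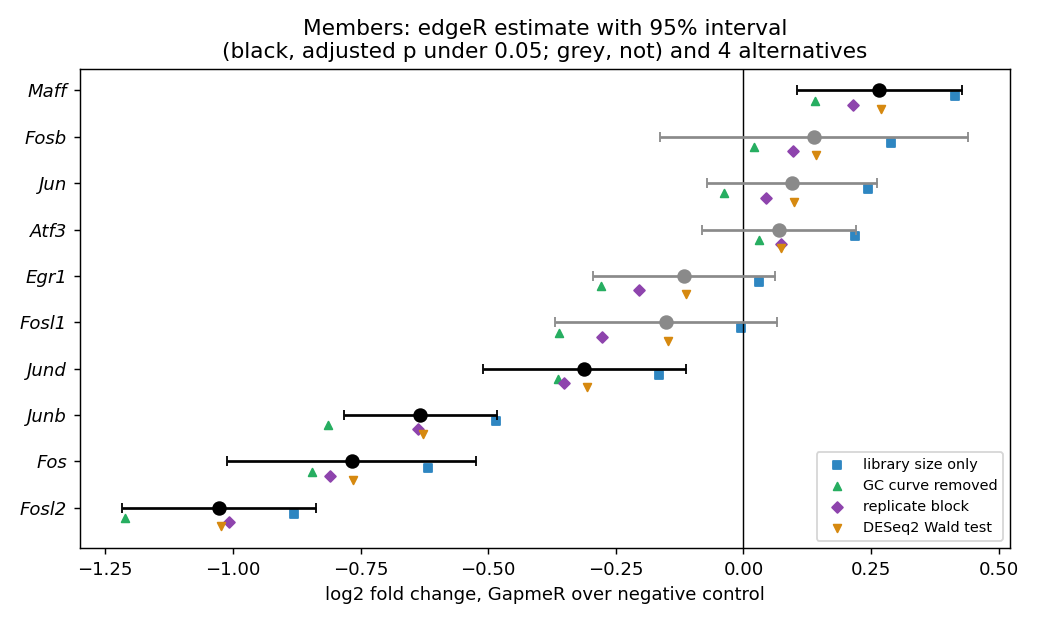
Log2 fold change (GapmeR over negative control) of each of the 10 genes, with large points at the edgeR estimate (black where adjusted p was under 0.05), bars for the 95% interval and small markers for 4 other settings. Fosl2 (-1.03), Fos (-0.77), Junb (-0.63) and Jund (-0.31) lie below 0 with their intervals, Maff (0.27) lies above, and the other intervals cross 0.

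Counted together, 5 of the 10 passed the test, beside 45.3% of all genes. In 4 of them the GapmeR samples all lay below the controls and in 1 they all lay above, beside 27.3% and 31.9% of all genes tested (59.2% in either direction). At least 1.5-fold lower were 3 of the 10 (Fosl2, Fos and Junb), beside 7.62% of all genes, and none was 1.5-fold higher, beside 17.8%. The median log2 fold change of the 10 was -0.13. An exact 2-sided permutation test over the samples has 15 splits of 4 against 2, so its smallest p is 0.0667, which Fos, Fosl2, Junb and Maff each reached. Without negative control 2 the number that passed was 3, all lower. Scaling by library size only gave 3 higher and 3 lower, and removal of GC content gave 6 lower and none higher. The GC content of the longest transcript was 50.5 to 67.2% for the 10 genes, above the median of 49.6% for the genes tested, and its part in the results was not tested.

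The level of a gene relative to the others was compared per kilobase of exon, with lengths from the GRCm39 annotation, which is not the one used for counting. In the controls the order by mean CPM per kilobase was Jund (406), Fosl1 (210), Jun (108), Fosl2 (66.4), Junb (60.0), Egr1 (45.5), Atf3 (32.1), Maff (24.1), Fos (19.8) and Fosb (10.4). With these lengths the values of neighbouring genes in the 2 controls did not overlap. In the GapmeR samples Fosl2 had moved from the fourth to the seventh place (32.6), behind Egr1 (42.0), Junb (38.7) and Atf3 (33.8). There the ranges of Egr1 and Junb, of Atf3 and Fosl2, of Fosl2 and Maff, and of Fos and Fosb overlapped. The places in both groups rest on the summed length of all exons. For Fosl2 this was 10397 bases, against 6975 for its longest transcript. A shorter length gives a higher level, and the order with the longest transcript was not computed, so the places depend on the length chosen.

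Within the FOS family the share of Fosl1 was higher and that of Fosl2 lower in every GapmeR sample than in either control, which is as far as a permutation test of 4 against 2 samples can go. Fosl1 made up 77.2, 74.1, 78.5 and 78.6% of the summed CPM per kilobase of the 4 FOS family genes after the GapmeR and 69.5 and 67.5% in the controls. Fosl2 made up 14.8, 14.1, 13.5 and 11.3% and 20.4 and 23.0%, respectively. The groups did not overlap for either gene, with differences of 8.63 and -8.30 percentage points (exact 2-sided permutation p = 0.0667 for each, the smallest possible). Fos made up 4.00 to 5.68% against 5.96 to 6.94% and Fosb 3.81 to 6.12% against 3.20 to 3.57% (exact permutation p = 0.133 for each). Without division by length the differences were -14.9 points for Fosl2, 11.9 for Fosl1, -0.45 for Fos and 3.48 for Fosb. The total of the family was 244 ± 24.7 CPM per kilobase (n = 4) against 306 ± 6.35 (n = 2), or 79.8% of the controls. A share can rise because other members fall. Fosl1 itself had a log2 fold change of -0.15 and did not pass the test. The uncertainty from its overlap with Ccdc85b applies to these shares too.

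In the JUN family the share of Junb was lower and that of Jun higher in every GapmeR sample than in either control. Junb made up 8.23, 8.21, 7.66 and 8.11% of the summed CPM per kilobase after the GapmeR and 10.5 and 10.4% in the controls (-2.39 percentage points; exact permutation p = 0.0667). Jun made up 22.1, 25.6, 21.8 and 26.9% against 19.0 and 18.6%, a difference of 5.28 points (exact permutation p = 0.133). Jun itself had a log2 fold change of 0.10 and did not pass the test, while Junb and Jund fell. Jund made up the most in every sample, with 65.0 to 70.5% against 70.4 and 71.1%, and its groups overlapped. The JUN family total was 481 ± 39.5 against 574 ± 1.93 CPM per kilobase, or 83.8% of the controls.

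**Figure D3:**
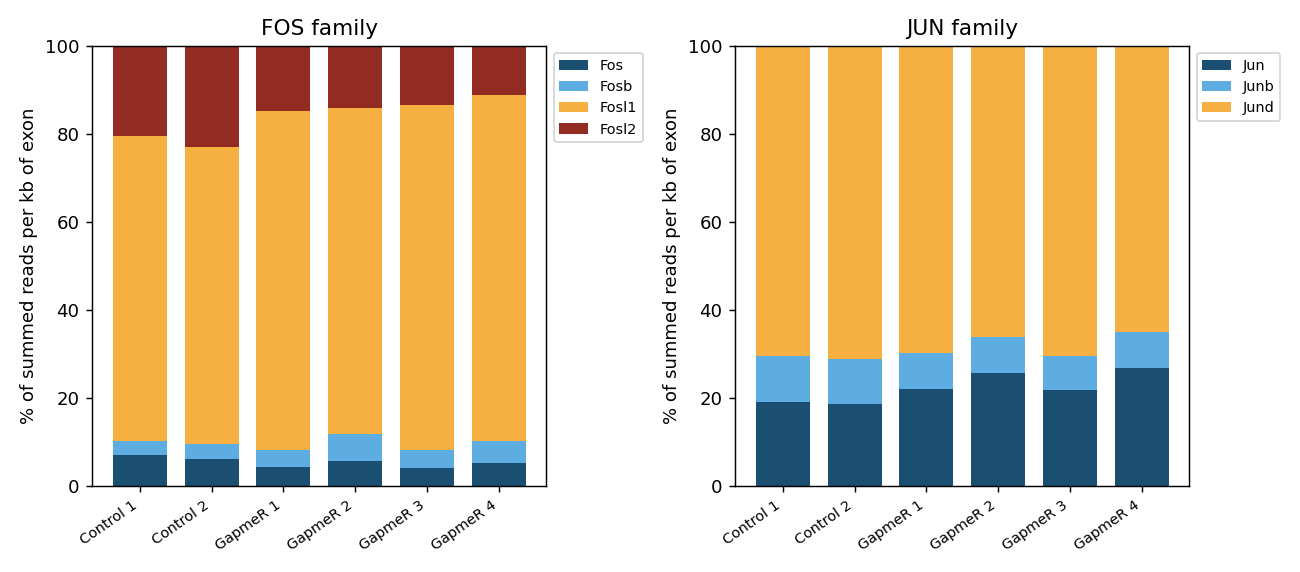
Share of each gene in the summed CPM per kilobase of its family, in percent, as stacked bars for the 4 GapmeR samples and the 2 negative controls. The Fosl2 band of the FOS family narrows from 20.4 and 23.0% in the controls to 11.3 to 14.8% in the GapmeR samples.

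A ratio of the reads of 2 genes in the same library does not depend on how libraries are scaled to each other. The 9 pairs within the families were compared this way, a measure added after the counts had been seen. In 7 of the 9 the GapmeR samples and the controls did not overlap. Of single genes tested, 59.2% did not overlap in either direction, and no such share was computed for other gene pairs. The 9 pairs share genes, so they are not separate results. Fos to Fosb was 0.420, 0.350, 0.378 and 0.400 after the GapmeR and 0.819 and 0.630 in the controls, 1.86-fold lower. Fosl1 to Fosl2 was 1.02, 1.03, 1.14 and 1.37 against 0.666 and 0.573, 1.83-fold higher. Jun to Junb was 3.59, 4.17, 3.82 and 4.44 against 2.42 and 2.40, 1.66-fold higher. Each of these differences had an exact permutation p of 0.0667 (0.12 after Benjamini-Hochberg adjustment over the 9 pairs), the smallest the design allows before adjustment. Fos to Fosl2 and Fosb to Fosl1 overlapped between the groups.

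**Figure D4:**
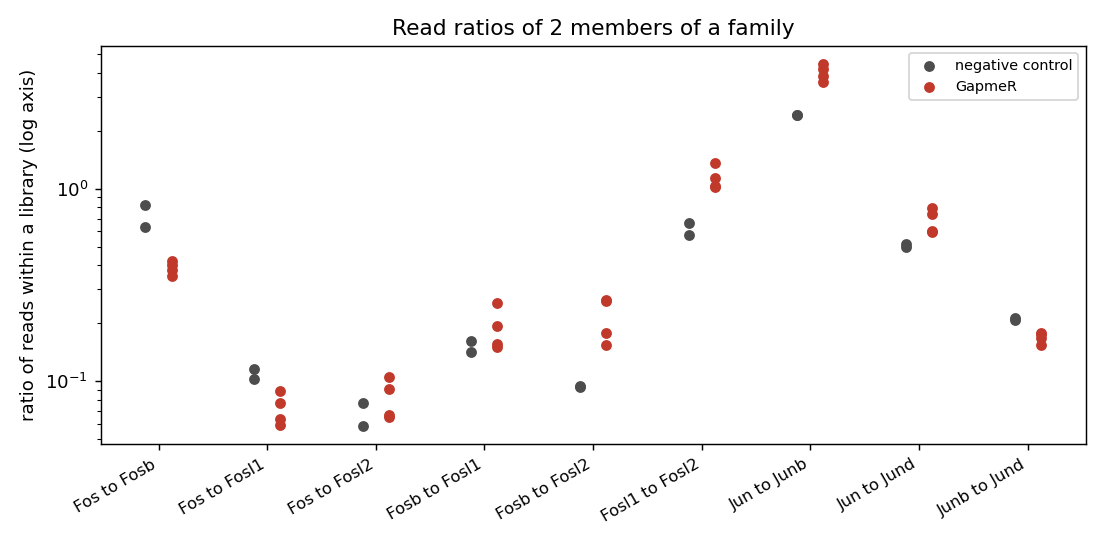
Ratio of reads of gene pairs within a library on a logarithmic axis, with 1 point for each GapmeR and negative control sample. Fos to Fosb sits at 0.350 to 0.420 in the GapmeR samples and at 0.630 and 0.819 in the controls, and Jun to Junb at 3.59 to 4.44 against 2.40 and 2.42.

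The genes whose log2 CPM followed that of Fosl2 most closely over the 6 samples, among 8870 genes with a mean of at least 10 CPM, were H2-Q4, Ccdc94 and Cfap43 (Pearson r = 1.00 for each after rounding, with log2 fold changes of -1.32, -0.74 and -1.01). For Maff they were Ipo13 (r = 0.986), Adam8 (0.983) and Sfpq (0.981). These values describe 6 points that fall into 2 groups and share their libraries and scaling.

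Other proteins with a bZIP domain, which pair with AP-1 members or bind related sites, were mostly lower where they passed the test. Of 24 such genes tested, 3 rose and 13 fell (66.7% in either direction, beside 45.3% of all genes). Of all genes 25.4% rose and 20.0% fell. The members and the lists here and below were chosen with earlier results of these data known, so their shares are not tests of the lists. The median log2 fold change was -0.22 beside 0.03 for all genes, and scaling by library size only gave 5 higher and 10 lower. Batf2, a BATF protein linked to interferon responses, fell from 66.5 ± 6.28 to 18.6 ± 3.35 CPM (log2 -1.84, edgeR adjusted p = 2.1e-06). Cebpd, a C/EBP factor of the acute phase response, fell from 145 ± 0.0222 to 53.1 ± 5.56 CPM (log2 -1.45, edgeR adjusted p = 8.11e-10). Atf5 rose from 67.6 ± 4.42 to 102 ± 13.7 CPM (log2 0.59) and Batf3 from 2.34 ± 0.154 to 3.36 ± 0.248 CPM (log2 0.52), of which Batf3 lost the call without either control, with DESeq2 and with GC content removed. The third gene that rose, Batf, falls under the mean level set for naming and was singled out after its values were seen. It had no count in either control and 30 to 51 counts in the GapmeR samples, whose mean CPM was at least 11.2-fold higher than the mean of a floor of 3 counts per control library.

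Immediate early genes other than the members fell more often than they rose. Of 40 tested, 4 rose and 23 fell (67.5%), and the median log2 fold change was -0.40. Among all genes tested 45.3% passed, 25.4% as higher and 20.0% as lower. Scaling by library size only gave 5 higher and 20 lower of the 40. Nr4a1, an orphan nuclear receptor induced within minutes by many stimuli, was at 28.7, 34.1, 31.1 and 37.6 CPM in the GapmeR samples and at 128 and 134 CPM in the controls. It fell 3.99-fold (edgeR adjusted p = 7.7e-11), and its relative Nr4a3 fell from 3.64 ± 0.347 to 0.784 ± 0.152 CPM (log2 -2.22, edgeR adjusted p = 8.54e-07). Nfil3, a bZIP repressor, fell from 31.8 ± 0.802 to 8.97 ± 1.10 CPM (log2 -1.83, edgeR adjusted p = 6.83e-10). Genes that rose included Egr2, a paralog of Egr1, from 0.95 ± 0.208 to 2.52 ± 0.413 CPM (log2 1.39, edgeR adjusted p = 0.000305), and the stress genes Gadd45a (log2 0.66) and Gadd45g (log2 0.63).

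Genes of the route that switches the members on passed the test at about the rate of all genes. Of 28 upstream regulators, 3 rose and 10 fell (46.4%, beside 45.3% of all genes). Their median was -0.11, but scaling by library size only gave 10 higher and 5 lower. Map2k1, which encodes MEK1, the kinase that activates ERK1 and ERK2, was at 78.6, 83.7, 77.9 and 79.5 CPM in the GapmeR samples and at 188 and 198 CPM in the controls. It fell 2.42-fold (log2 -1.27, edgeR adjusted p = 3.19e-10) and was the only gene of the list past 1.5-fold. Mapk3, which encodes ERK1, fell from 420 ± 12.6 to 296 ± 27.3 CPM (log2 -0.51, edgeR adjusted p = 0.000145). The genes that rose were Rps6ka1, an ERK-activated kinase (log2 0.51), Mkl1, a coactivator of serum response factor (0.49), and Map2k6, an activator of p38 (0.31). Rps6ka1 lost the call without negative control 2, and Map2k6 lost it without either control, without GapmeR 1, 2 or 4, with no filter and with DESeq2. Without negative control 2, 6 of the 28 passed.

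Genes known as targets of AP-1 or EGR1 moved in both directions. Of 28 listed, 27 were tested, 5 rose and 12 fell (63.0%, beside 45.3% of all genes, 25.4% higher and 20.0% lower). Their median was -0.17, and scaling by library size only gave 8 in each direction. Mmp13, a collagenase with an AP-1 site in its promoter, fell from 15.1 ± 0.307 to 2.95 ± 0.335 CPM (log2 -2.35, edgeR adjusted p = 4.79e-10). Plaur, the urokinase receptor, fell from 494 ± 4.63 to 234 ± 8.37 CPM (log2 -1.08, edgeR adjusted p = 3.1e-09), and Cd44, the hyaluronan receptor, from 111 ± 1.43 to 58.3 ± 1.58 CPM (log2 -0.93, edgeR adjusted p = 1.18e-08). Mmp3, another matrix metalloproteinase with a known AP-1 site, rose from 11.0 ± 0.443 to 18.9 ± 0.949 CPM (log2 0.78, edgeR adjusted p = 7.23e-06). Hmox1, the inducible heme oxygenase, rose from 182 ± 1.17 to 311 ± 9.84 CPM (log2 0.77, edgeR adjusted p = 3.36e-07), and Sphk1, a sphingosine kinase, from 0.277 ± 0.185 to 1.44 ± 0.258 CPM (log2 2.31, edgeR adjusted p = 0.000155). Sphk1 had only 4 and 13 counts in the controls, so the size of its change rests on few reads. Mmp13 and Mmp3, both textbook AP-1 targets, thus moved in opposite directions. Of the other matrix metalloproteinases listed, Mmp10 (log2 -2.99, with 3 to 13 counts in the GapmeR samples) and Mmp14 (log2 -0.72) fell, and Mmp9 was not tested.

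**Figure D5:**
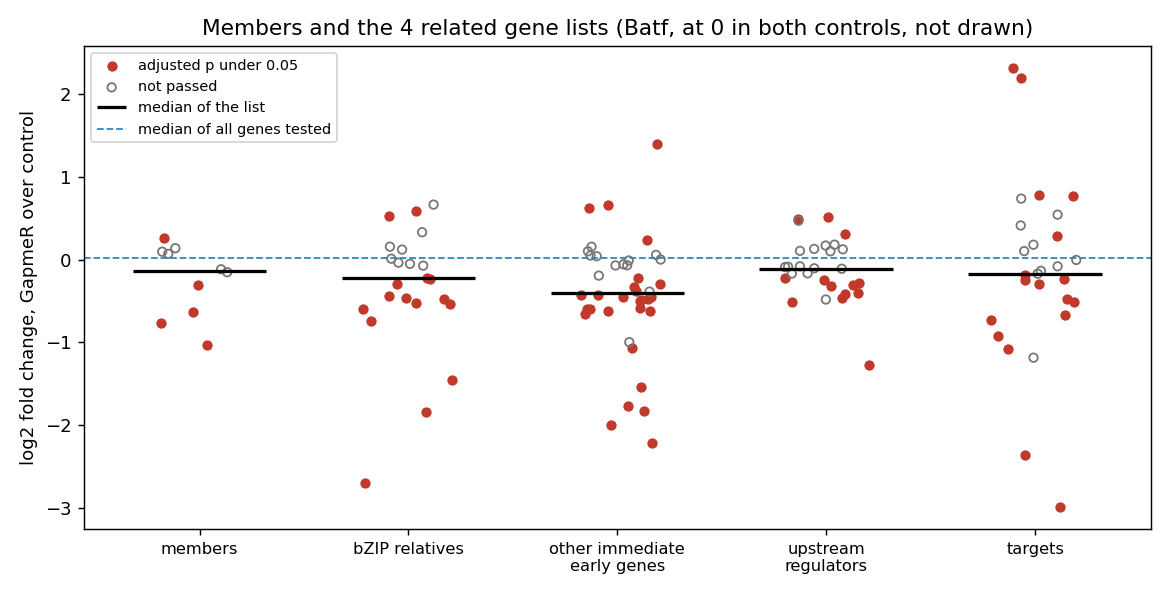
Log2 fold change (GapmeR over negative control) of every tested gene of the 10 members and the 4 related lists, filled where the edgeR adjusted p was under 0.05, with a bar for the median of the list and a dashed line for all genes (0.03). Batf, with no count in either control, is left out. The list medians are -0.13, -0.22, -0.40, -0.11 and -0.17.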

How the data were processed

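RNA was depleted of ribosomal RNA, sequenced as paired reads and processed with the bcbio-nextgen pipeline. The submitters' processing notes name Trimmomatic 0.36, STAR 2.5.2b and Subread 1.5.2 with mm10/GRCm38. The authors deposited raw read counts (whole numbers) for 49315 Ensembl genes, of which 174 have no gene name. Whether counting used strand, and which Ensembl release it used, are not given in the sources used here. Groups came from the sample labels. The study gives 4 samples for each group. Of the negative controls, 2 were analysed here, and 1 further column of per-sample counts that no label names was not used.

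Genes that reached 5 counts in 2 or more samples were tested with edgeR 4.0.16 in R 4.3.3 (TMM, robust quasi-likelihood F test, Benjamini-Hochberg adjustment over all 18234 genes, threshold 0.05). TMM factors lay between 1.02 and 1.05 with the GapmeR and were 0.936 and 0.932 for the controls. Intervals are 95% intervals, and floors of 3 counts cover counting error only. The biological coefficient of variation was 8.42%. Counts of replicates differed by more than sampling noise in every pair (chi-square per degree of freedom 5.87 to 27.9), so none was merged as a repeat deposit of another, which does not show that they were separate cultures. Shares of a family, CPM per kilobase and ratios were computed in Python 3.11.15 with pandas 2.3.3 and scipy 1.17.1, with exact permutation tests over the samples. In data simulated for this comparison on 16237 genes, edgeR recovered 57 of 67 genes changed 1.5-fold and 66 of 67 changed 2-fold, and 14 of its 203 calls were false. Besides these only 66 genes were changed, 4-fold, and all changed genes were well counted. In the real data 45.3% of genes passed. The simulation therefore cannot give the false-call rate or the effect of scaling there.

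The members and the gene lists were chosen with earlier results of these data known. Named are all members, Gm39822, from each list up to 3 genes with the highest and 3 with the lowest log2 fold change among those that passed with a mean of at least 1 CPM, and for the members with the highest and lowest change that passed, the 3 genes most correlated with each. Some genes that meet this rule are not reported here. Alternatives were DESeq2's size factors, library size only, DESeq2 1.42.0, limma-voom (limma 3.58.1), 2 other filters, a 1.5-fold threshold, the replicate block, removal of a loess curve (span 0.3) on GC content, other gene lengths and each sample left out in turn. Centring on the median and the read ratios were added after seeing the data. GC content came from the GRCm39 annotation and was had for 98.5% of tested genes. Coordinates and start regions came from RefSeq on GRCm38.p6.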

Additional observations from a re-analysis of the deposited data

How the results depend on the processing

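Fos, Fosl2 and Junb fell and passed under all 14 alternatives with a test, with log2 fold changes of -0.87 to -0.61, -1.21 to -0.88 and -0.81 to -0.49, and Fosb passed under none. Leaving out 1 sample at a time, 5232 to 8719 of all genes passed, 3 to 5 of the members, and 6 to 13 of the upstream regulators, each lowest without negative control 2. With a 1.5-fold threshold, 4628 of all genes, 3 members, 7 bZIP relatives, 14 other immediate early genes, 1 upstream regulator and 10 targets remained counted. Scaling by library size only moved the median of all genes by 0.15 and the split from 4625 higher and 3643 lower to 6106 and 2135. Among the members it gave 3 higher and 3 lower, and Egr1 turned to 0.031. With no filter the median moved by 0.13. Removal of GC content turned Jun to -0.037 and gave 6 members lower and none higher. Relative to the median of all genes under the same setting, Fosb (-0.023), Jun (-0.066) and Atf3 (-0.092) turned negative with no filter, Jun (-0.023) with GC content removed and Atf3 (-0.014) without negative control 1 (0.092 without negative control 2). The cause of these was not tested, and none of the main calls is among them. Without division by length the shares of the FOS family differed by -0.45 points (Fos), 3.48 (Fosb), 11.9 (Fosl1) and -14.9 (Fosl2), and Junb by -3.10 (-2.98 with the longest transcript). Gm39822 failed the filter of at least 10 counts in every sample and the main filter with either control left out, so these gave no value. The replicate numbers, which no label ties to a shared culture or day, correlated at -0.11 and 0.20 in their deviations from the group means. The fit with the replicate block could use 4 samples and called 7812 genes, with 5 members lower and none higher. With 2 controls, Jund lost its call without either and Maff without negative control 2, although their log2 fold changes stayed at -0.30 and -0.28 and at 0.26, and no permutation test of single genes can reach 0.05.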
